A study of Mus musculus with 4 samples.

Results

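Low-stress CD8 T cells from tumors of mice given anti-PD-L1 (aPD-L1) were compared with low-stress CD8 T cells from tumors of untreated mice (Ctrl), to ask which differences between the libraries remained once cells with high stress transcripts were taken out. Cells were selected on measured transcripts. A cell was kept with at least 500 genes, at most 10% mitochondrial UMIs, at least 1 UMI of Cd3d, Cd3e and Cd3g together, at least 1 UMI of Cd8a and Cd8b1 together, no more than 1 UMI of the macrophage genes C1qa, C1qb and C1qc, and no UMI of Siglech, a marker of plasmacytoid dendritic cells. The stress term then allowed no more than 1 UMI of Hspa1a, Hspa1b and Atf3 together. It left 785 low-stress cells of 2758 barcodes in these libraries and of 5508 in the series, namely 606 of 1021 CD8 T cells in aPD-L1 and 179 of 687 in Ctrl. A UMI is a molecular tag that counts 1 captured transcript.

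The libraries came from CD3+ CD8+ cells sorted from digested tumors that male FVB mice grew under the skin from Myc-CaP, a Myc-driven line of mouse prostate cancer, and were made with the 3′ droplet kit of 10x Genomics. The aPD-L1 mice received 10 mg/kg of the antibody by intraperitoneal injection every week for 3 to 4 weeks, and the Ctrl mice received no drug. Libraries from mice given oxaliplatin at 6 mg/kg (Oxali) or both agents (Combo) on the same schedule are used only for side-by-side values. Each group was 1 library from a number of mice not stated in the sources used here. No test between groups was possible, and all brackets are 95% exact intervals that cover counting error only.

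PD-L1 on tumor and myeloid cells engages the receptor PD-1 on T cells and restrains signaling from the T-cell receptor. Antigen contact and tissue handling both induce a rapid transcript program in T cells, with AP-1 factors, dual-specificity phosphatases and NF-kB feedback genes, while heat and digestion induce chaperones such as the HSP70 proteins encoded by Hspa1a and Hspa1b. Atf3 is a stress-induced transcription factor.

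The gate kept a larger share of the aPD-L1 cells. Low-stress cells were 59.4% [56.3, 62.4] of the CD8 T cells in aPD-L1 and 26.1% [22.8, 29.5] in Ctrl. No UMI of the 3 gate genes was seen in 499 aPD-L1 and 129 Ctrl cells. Just inside the threshold, at 1 UMI, stood 107 aPD-L1 and 50 Ctrl cells, and just outside, at 2 UMIs, 70 aPD-L1 and 35 Ctrl cells. The libraries differed most at the far end, where 108 aPD-L1 cells and 331 Ctrl cells held 10 or more UMIs. These counts follow from the choice of cells and are given as a description. The summed level of the gate genes was 929 CPM in aPD-L1 and 3770 CPM in Ctrl over all CD8 T cells, and 53.2 CPM and 82.4 CPM in low-stress aPD-L1 and Ctrl cells, so a smaller gap in the same direction remained. CPM is a gene's UMIs in the summed cells after the UMIs of each library are scaled to the same total. In such sums, fewer cells of a kind and less RNA per cell cannot be told apart.

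**Figure D1:**
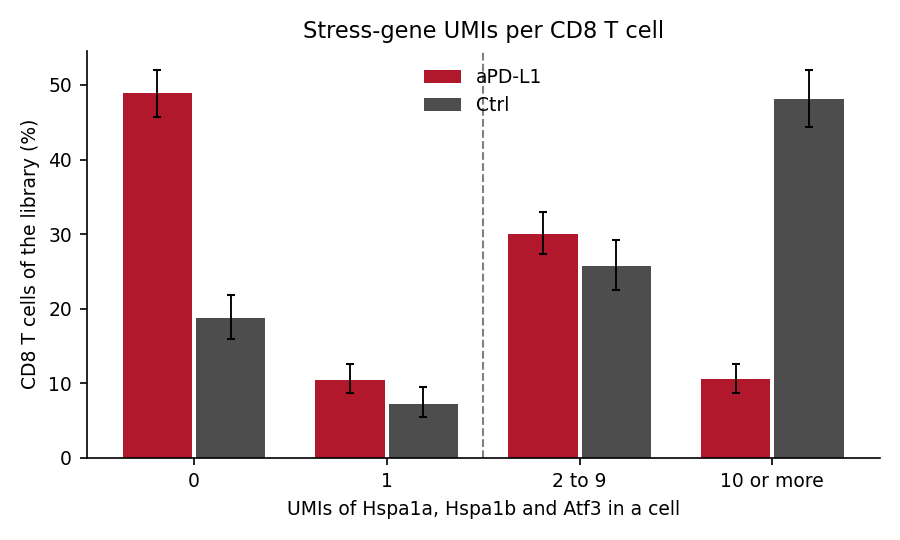
Share of CD8 T cells in each library (%) by the number of UMIs of Hspa1a, Hspa1b and Atf3 in a cell, with 95% exact binomial intervals. Cells left of the dashed line were kept, and 48.2% of Ctrl cells but 10.6% of aPD-L1 cells held 10 or more.

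The low-stress cells held 2012145 UMIs in aPD-L1 and 606643 in Ctrl. Their median depth was 2637 UMIs in aPD-L1 and 2619 in Ctrl, and the median mitochondrial share was 2.80% in aPD-L1 and 4.05% in Ctrl. No barcode was shared between these libraries. All 12 CD8 T-cell markers were detected in both, with ratios above 1 for all 12, a median log2 ratio of 0.27 and a summed level of 10288 CPM in aPD-L1 and 8582 CPM in Ctrl. The median is as large as those of the naive and memory list (0.24) and the antiviral list (0.29). At least 3 UMIs of macrophage markers were seen in 26.6% of aPD-L1 and 28.5% of Ctrl cells, with a summed level of 1285 CPM and 1200 CPM over the 16 markers in aPD-L1 and Ctrl. Adgre1 (F4/80) was at 9 UMIs in aPD-L1 and 0 in Ctrl. Erythroid markers were at 0 in both, and neutrophil markers at 2.48 CPM in aPD-L1 and 4.95 CPM in Ctrl. Gm42418, a locus that collects ribosomal RNA reads, was at 1821 CPM in aPD-L1 and 3788 CPM in Ctrl, and AY036118, another such locus, at 60.6 CPM and 191 CPM in aPD-L1 and Ctrl. The part of these values in the results was not tested.

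At least 100 UMIs over the low-stress cells of both libraries were asked of a gene, and 3233 genes passed. Of these, 160 were 1.5-fold or more higher in aPD-L1 (4.95% of genes tested) and 140 were 1.5-fold or more lower (4.33%). The counting interval of the ratio left out 1 for 123 of the higher and 135 of the lower genes. Among the same 3233 genes, the CD8 T cells before the stress term gave 36 higher and 94 lower. On these genes, chosen by their counts in low-stress cells, more were thus past the fold after the stress term, over a Ctrl library with fewer UMIs. With the same filter applied to the counts of all CD8 T cells, 106 genes were higher and 283 lower of 5778 tested. The median log2 ratio of all tested genes was -0.01 in low-stress cells and 0.06 in all CD8 T cells.

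Among the 3233 genes, most of the differences seen in all CD8 T cells were still there. Of the 94 lower genes, 59 stayed past the fold in low-stress cells (62.8%), and of the 36 higher genes, 20 did (55.6%). Read from the other side, these were 42.1% of the lower and 12.5% of the higher genes of the low-stress cells. Low-stress cells are part of all CD8 T cells, so this is not independent support. The stressed cells, which share no cell with them, put 105 of 137 lower genes and 117 of 158 higher genes on the same side of 1, beside 43.3% and 56.7% of all tested genes below and above 1 there. Past the fold in stressed cells too were 53 of the lower and 10 of the higher genes, where 230 genes were lower and 76 higher of 4216 tested there. Both sets of cells come from the same 2 libraries. This comparison was chosen after seeing the data.

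**Figure D2:**
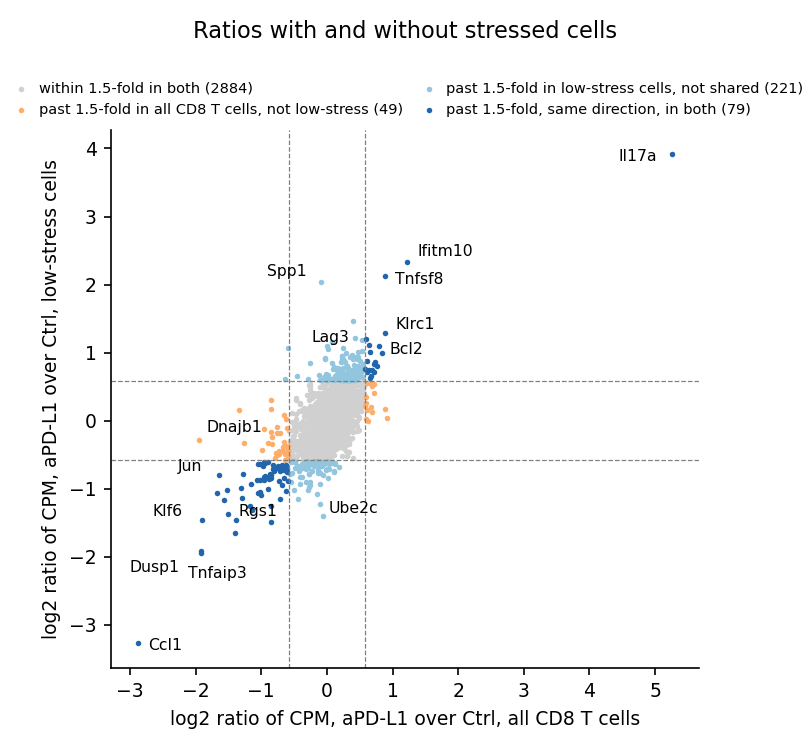
Log2 ratio of CPM, aPD-L1 over Ctrl, for each of the 3233 tested genes in all CD8 T cells (x axis) and in low-stress cells (y axis), with dashed lines at 1.5-fold. The 79 genes past the fold in both lie mostly at lower left, where Dusp1, Tnfaip3, Klf6 and Rgs1 sit far from the cloud.

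Single chaperone genes of the heat-shock response lost their difference once stressed cells were out, although the median of the list did not. Dnajb1, a cochaperone of HSP70, was 3.87-fold lower in aPD-L1 over all CD8 T cells, but stood at 118 CPM in aPD-L1 and 143 CPM in Ctrl in low-stress cells, a ratio of 0.821 [0.64, 1.06]. Hsph1, an HSP110 chaperone gene, was 2.39-fold lower before the stress term and at a ratio of 0.795 after it. Dnajb1 and Hsph1 are induced together with the gate genes, so their levels are partly fixed by the choice of cells. Hsp90aa1, the inducible HSP90 gene, kept a 1.99-fold lower level [1.76, 2.25], with 355 CPM in aPD-L1 and 707 CPM in Ctrl. Of the 15 chaperones listed, 11 passed the filter on low counts, 1 was lower and none was higher past the fold, and their median log2 ratio was -0.36, against -0.29 in all CD8 T cells. Before the stress term 3 were lower. Under a broader stress gate of 12 genes the median was 0.065, and Hsp90aa1 was at a ratio of 0.712, no longer past the fold.

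Early-response genes stayed lower in aPD-L1, in part by smaller margins. Of the 20 listed, 16 passed the filter and 9 of these were past the fold, all lower, against 13 before the stress term. The median log2 ratio was -0.66 in low-stress cells and -0.87 in all CD8 T cells. Fos, an AP-1 subunit, was at 88.0 CPM in aPD-L1 and 185 CPM in Ctrl, 2.10-fold lower [1.64, 2.67] where all CD8 T cells gave 3.18-fold. Jun, its partner, was 1.74-fold lower [1.49, 2.03] where all CD8 T cells gave 3.11-fold. Both genes were higher in cells with more gate UMIs, in both libraries, by a split chosen after seeing the data. Fos was at 141 CPM in Ctrl cells with 0 gate UMIs and 933 CPM in those with 10 or more. In aPD-L1 it was at 84.9 CPM and 634 CPM. The smaller margins of Fos and Jun are thus partly fixed by the choice of cells. With the stress gate set per depth, on the share of a cell's UMIs in 12 stress genes, the ratio was 0.792 for Fos and 0.684 for Jun, and neither passed the fold. Fos and Jun are themselves among those 12 genes, so these ratios are partly fixed by the choice of cells. Junb was at 613 CPM in aPD-L1 and 1164 CPM in Ctrl and 1.90-fold lower, close to the 2.24-fold of all cells. Jund, Btg2, Ppp1r15a and Socs3 were past the fold before the stress term and not after it, at ratios from 0.797 to 0.892.

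Klf6, a zinc-finger transcription factor of the same list, showed one of the largest gaps (ENSMUSG00000000078, GRCm38 chromosome 13, 5861482 to 5870394). It was at 172 CPM in aPD-L1 and 475 CPM in Ctrl, 2.76-fold lower [2.35, 3.24]. By the number of gate UMIs in a cell, a split chosen after seeing the data, its ratio was 0.37 at 0 UMIs, 0.381 at 1, 0.36 at 2 to 9 and 0.359 at 10 or more. The level of Klf6 was higher with more gate UMIs in both libraries, at 371 CPM in aPD-L1 and 1033 CPM in Ctrl at 10 or more, while the ratio between the libraries stayed near the same value. Gadd45b, a stress sensor, was 2.39-fold lower and Zfp36, which destabilizes cytokine mRNAs, 2.04-fold lower.

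The phosphatase and NF-kB feedback genes had the steadiest list median across the sets of cells. Of 17 listed, 8 passed the filter, 6 were lower past the fold and none was higher, and the median log2 ratio was -0.92 in low-stress cells, -0.93 in all CD8 T cells and -0.92 in stressed cells. Tnfaip3, which encodes the ubiquitin-editing enzyme A20 that shuts off NF-kB (ENSMUSG00000019850, chromosome 10, 19000910 to 19015657), was at 50.2 CPM in aPD-L1 and 193 CPM in Ctrl. It was thus 3.84-fold lower [2.92, 5.07] in low-stress cells, 3.78-fold in all and 3.55-fold in stressed cells. Dusp1, a phosphatase that inactivates p38 and JNK (ENSMUSG00000024190, chromosome 17, 26505590 to 26562128), was at 47.7 CPM in aPD-L1 and 180 CPM in Ctrl, 3.77-fold lower [2.84, 5.01]. By gate UMIs its ratio was 0.233 at 0, 0.41 at 1, 0.436 at 2 to 9 and 0.502 at 10 or more. The gap was thus widest in cells with no detected gate transcript and narrower with more gate UMIs.

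The other members were Dusp2, Dusp5, Nfkbia and Nfkb1. Dusp2, a nuclear phosphatase of ERK, was at 368 CPM in aPD-L1 and 785 CPM in Ctrl, 2.13-fold lower [1.90, 2.39]. Nfkbia, which encodes the inhibitor that holds NF-kB in the cytoplasm, was 1.72-fold lower. Rel and Relb, NF-kB subunits of the same list, both had a ratio of 1.17 and did not pass the fold, so the list did not move as a block.

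**Figure D3:**
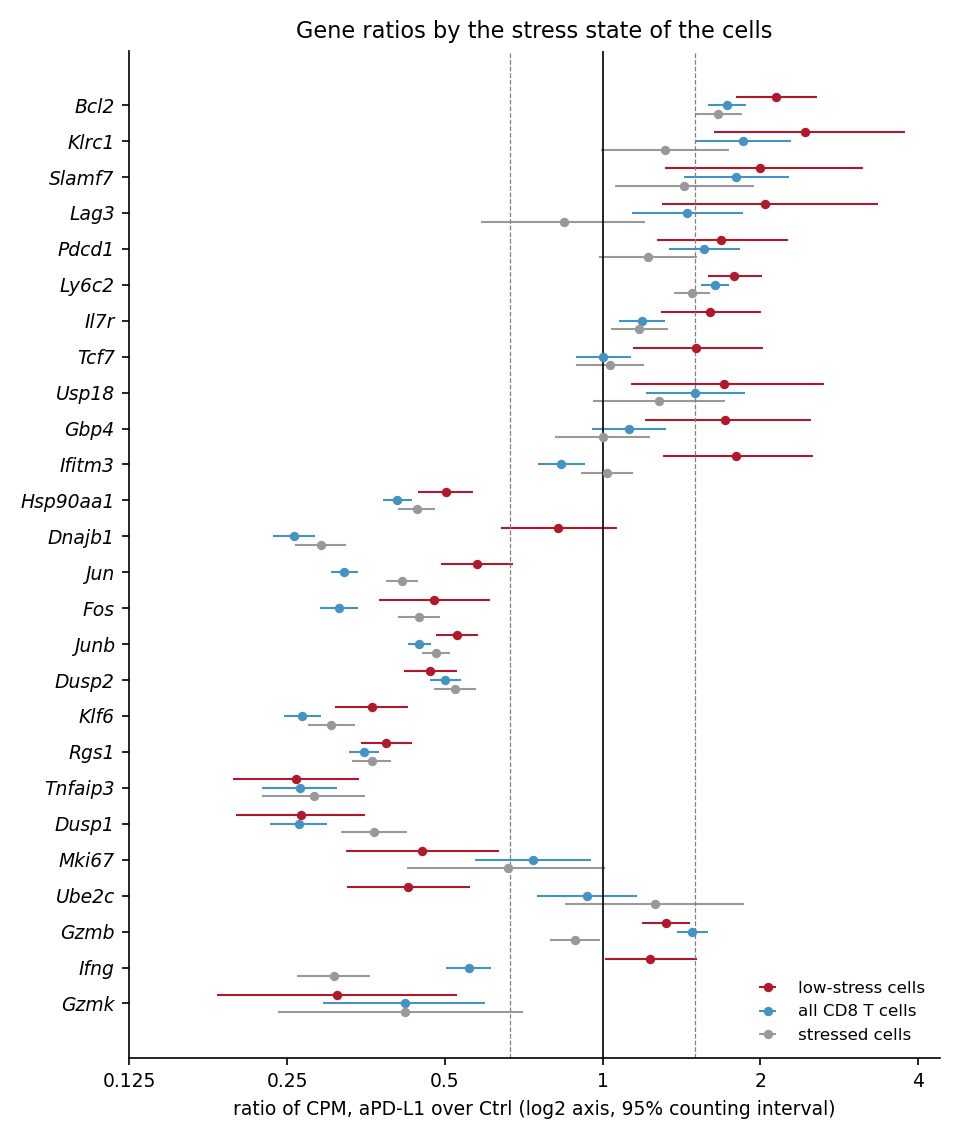
Ratio of CPM, aPD-L1 over Ctrl (log2 axis), of 26 genes in low-stress, all and stressed CD8 T cells, with 95% exact counting intervals, a solid line at 1 and dashed lines at 1.5-fold. Tnfaip3 and Klf6 lie far below 1 in each set, Dnajb1 comes close to 1 only in low-stress cells, and Ifng lies below 1 in all and stressed cells.

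Genes induced through the T-cell receptor were low in count and mostly lower in aPD-L1. Of 16 listed, 8 passed the filter, all 8 had ratios below 1, and Rgs16 and Nr4a2 passed the fold at 2.20-fold and 1.84-fold lower. Nr4a1 (Nur77), the usual reporter of receptor signals, missed the filter with 20.9 CPM in aPD-L1 and 44.5 CPM in Ctrl, 2.13-fold lower [1.26, 3.54]. The median log2 ratio of the list was -0.28, against -0.44 in all CD8 T cells and -0.72 in stressed cells. Over all tested genes the median was -0.01 in low-stress cells. Components of the receptor pathway itself, such as Lck and Zap70, had 0 of 23 measured members past the fold and a median of 0.07.

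Some genes of the residency and adhesion list were also lower. Rgs1, which limits migration toward chemokines and egress signals (ENSMUSG00000026358, chromosome 1, 144242296 to 144249242), was at 353 CPM in aPD-L1 and 913 CPM in Ctrl, 2.59-fold lower [2.31, 2.90]. Rgs2 was 2.25-fold lower and Cd44, the hyaluronan receptor of activated T cells, 1.59-fold lower [1.03, 2.41]. Bhlhe40, a transcription factor of cytokine-producing T cells, was at 65.6 CPM in aPD-L1 and 163 CPM in Ctrl, 2.49-fold lower. Helios, encoded by Ikzf2, was 2.21-fold lower. These were the 2 of 11 measured effector transcription factors past the fold, and the median of that list was -0.24. The residency list as a whole had 3 of 9 measured members lower and a median log2 ratio of -0.03, near that of all tested genes.

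These gaps were visible in the number of cells as well. After each cell was thinned to 1500 UMIs, which left 543 aPD-L1 and 175 Ctrl cells, Rgs1 was seen in 27.3% [23.6, 31.2] of aPD-L1 and 57.1% [49.5, 64.6] of Ctrl cells. Tnfaip3 was seen in 7.55% [5.47, 10.1] of aPD-L1 and 25.7% [19.4, 32.9] of Ctrl cells. Klf6 was seen in 19.7% of aPD-L1 and 34.3% of Ctrl cells. Without thinning, the shares were 41.4% and 68.2% for Rgs1, 12.9% and 38.0% for Tnfaip3 and 33.5% and 52.5% for Klf6, in aPD-L1 and Ctrl cells in each case. A cell type lacking T-cell transcripts was not at hand, so no background share can be given. Among barcodes with 10 or more C1q UMIs, 138 in aPD-L1 and 86 in Ctrl, with median depths of 5756 and 9522 UMIs, Cd3e was seen in 78.3% and 82.6%, and Rgs1 in 61.6% and 87.2%. Rgs1, Tnfaip3 and Klf6 are also expressed by macrophages, so free RNA as a source of part of these counts was not tested.

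Genes higher in aPD-L1 included survival and quiescence genes of naive and memory T cells. Of 21 listed, 15 passed the filter, 7 were higher past the fold and none was lower, and the median log2 ratio was 0.24. Of all tested genes, 4.95% were higher and 4.33% lower past the fold. Bcl2, which blocks mitochondrial cell death (ENSMUSG00000057329, chromosome 1, 106538178 to 106714274), was at 504 CPM [473, 536] in aPD-L1 and 236 CPM [199, 278] in Ctrl, 2.14-fold higher [1.79, 2.56]. Its ratio was 1.73 in all CD8 T cells and 1.66 in stressed cells. After thinning, it was seen in 46.0% of aPD-L1 and 25.7% of Ctrl cells, and without thinning in 59.4% and 40.2%. In the C1q-rich barcodes it was seen in 71.7% in aPD-L1 and 79.1% in Ctrl.

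Ly6c2, a surface protein of memory CD8 T cells, was at 973 CPM in aPD-L1 and 546 CPM in Ctrl, 1.78-fold higher [1.59, 2.01], and 1.64-fold higher before the stress term. Reads of Ly6c2 and the near-identical Ly6c1 are hard to assign, and Ly6c1 was listed at 4 UMIs in aPD-L1 and 0 in Ctrl. Il7r, the interleukin-7 receptor that sustains memory cells, was at 261 CPM in aPD-L1 and 163 CPM in Ctrl, 1.60-fold higher [1.29, 2.01]. The egress receptor gene S1pr1 and the kinase gene Txk were 1.71-fold and 1.61-fold higher, and neither passed the fold in all CD8 T cells. Tcf7, the transcription factor of stem-like T cells, was at 152 CPM in aPD-L1 and 101 CPM in Ctrl, a ratio of 1.51 [1.14, 2.02], and at 1.00 in all CD8 T cells. Ccr7 was at 120 CPM in aPD-L1 and 139 CPM in Ctrl, and Lef1 had a ratio of 1.19, so the homing and quiescence genes did not all stand on the same side. Cells with a UMI of Ccr7, Lef1, Dapl1 or Il6ra were 47.9% [43.8, 51.9] of aPD-L1 and 47.5% [40.0, 55.1] of Ctrl low-stress cells.

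Inhibitory receptors were split. Of 17 listed, 6 passed the filter, 3 were higher and 1 was lower. Pdcd1, the gene of PD-1 (ENSMUSG00000026285, chromosome 1, 94038305 to 94052553), was at 164 CPM [146, 182] in aPD-L1 and 97.3 CPM [74.0, 125] in Ctrl, 1.68-fold higher [1.27, 2.26]. Lag3, which binds MHC class II, was at 74.1 CPM in aPD-L1 and 36.3 CPM in Ctrl, 2.04-fold higher [1.30, 3.36], but at 1.27 with the stress gate set per depth. Nt5e, the ecto-enzyme CD73, was 1.78-fold higher [1.10, 3.02]. Ctla4 was at 60.6 CPM in aPD-L1 and 98.9 CPM in Ctrl, 1.63-fold lower [1.18, 2.24]. Ctla4 passed the fold in 5 of 14 alternatives, and its ratio was 0.918 without dividing cells and 0.962 without cells with macrophage markers. Havcr2 (TIM-3), below the filter, was at 20.4 CPM and 14.8 CPM in aPD-L1 and Ctrl.

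Pdcd1 and Lag3 differed most in the cells with no gate UMI. There Pdcd1 was at 176 CPM in aPD-L1 and 87.3 CPM in Ctrl, and Lag3 at 81.2 CPM and 26.7 CPM in aPD-L1 and Ctrl. Among cells with 1 gate UMI the ratio was 0.885 [0.514, 1.56] for Pdcd1 and 0.73 [0.313, 1.76] for Lag3. These rest on 50 Ctrl cells, and their intervals overlap those at 0 UMIs, [1.43, 2.94] for Pdcd1 and [1.65, 6.25] for Lag3. At 2 to 9 gate UMIs the ratio was 1.44 [1.02, 2.06] for Pdcd1 and 0.687 for Lag3, and in all stressed cells 1.22 and 0.842. Pdcd1 was seen in 11.6% [9.03, 14.6] of thinned aPD-L1 and 8.57% [4.88, 13.7] of thinned Ctrl cells, a difference within the counting intervals. Thinned to 2500 UMIs, the order was the other way, with Pdcd1 in 16.8% of aPD-L1 and 19.6% of Ctrl cells. Without thinning it was seen in 17.3% and 15.1% of aPD-L1 and Ctrl cells. In the C1q-rich barcodes the share for Pdcd1 was 23.2% in aPD-L1 and 37.2% in Ctrl, at more than double the depth of the T cells.

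Killer lectin-like and related receptors had 2 of 10 measured members past the fold, Klrc1 and the SLAM-family gene Slamf7. Klrc1, the gene of the inhibitory receptor NKG2A (ENSMUSG00000030167, chromosome 6, 129666015 to 129678973), was at 108 CPM in aPD-L1 and 44.5 CPM in Ctrl, 2.43-fold higher [1.63, 3.78]. It was 1.85-fold higher in all CD8 T cells and at a ratio of 1.32 in stressed cells. After thinning to 1500 UMIs, Klrc1 was seen in 13.1% [10.4, 16.2] of aPD-L1 and 8.57% [4.88, 13.7] of Ctrl cells, with overlapping intervals. In the C1q-rich barcodes its share was 20.3% in aPD-L1 and 22.1% in Ctrl. Slamf7, an activating receptor of cytotoxic lymphocytes, was 1.99-fold higher [1.32, 3.14]. Klrk1, Klrd1 and Klrc2 had ratios from 1.23 to 1.45. NK markers gave 354 CPM in aPD-L1 and 434 CPM in Ctrl, and their part in these values was not tested.

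Genes of the interferon response were modestly higher in aPD-L1, by a median log2 ratio of 0.29 over the antiviral list. The median over all tested genes was -0.01. Of 38 antiviral genes listed, 26 passed the filter, 22 of these had ratios above 1, and 6 were higher and 1 was lower past the fold, where all CD8 T cells gave 1 and 1. Higher calls over all 3233 tested genes were likewise 160 after and 36 before the stress term. Usp18, which removes ISG15 from proteins, was at 78.5 CPM in aPD-L1 and 46.2 CPM in Ctrl, 1.70-fold higher [1.13, 2.64]. Slfn5 was 2.07-fold higher [1.20, 3.83] on 15 UMIs in Ctrl, and Slfn1, Rtp4, Ifi206 and Ifi47 were between 1.52-fold and 1.58-fold. Isg15 had a ratio of 1.19 and did not pass the fold. Mx1, an antiviral GTPase gene, stood on the other side, 1.84-fold lower [1.22, 2.75].

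Interferon-inducible GTPases, which attack pathogen vacuoles, had 3 of 7 measured members higher, Gbp4, Gbp3 and Gbp9, at 1.71-fold, 1.64-fold and 1.52-fold. Iigp1, which missed the filter, was at 83 UMIs and 41.2 CPM in aPD-L1 against 4 UMIs and 6.59 CPM in Ctrl, a ratio of 6.26 [2.35, 23.5], and at 27.7 CPM in Oxali and 32.6 CPM in Combo. In all CD8 T cells its ratio was 2.46. Ifitm3, a membrane protein that blocks viral entry, was at 133 CPM in aPD-L1 and 74.2 CPM in Ctrl, 1.80-fold higher [1.31, 2.52], and at 0.834 in all CD8 T cells. Its Ctrl count rested on 18 cells, of which 1 held 28.9%. Macrophages also express Ifitm3. Without the cells that held 3 or more UMIs of macrophage markers, a setting added after seeing the data, the ratio was 9.29 on few Ctrl UMIs, and the part of macrophage RNA in it was not tested. Ly6a (Sca-1) was 1.43-fold higher [1.25, 1.63] and did not pass the fold. MHC class I genes had 0 of 18 measured members higher and only H2-Q6 lower, and H2-Q6 reads are uncertain among its near-identical neighbors.

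**Figure D4:**
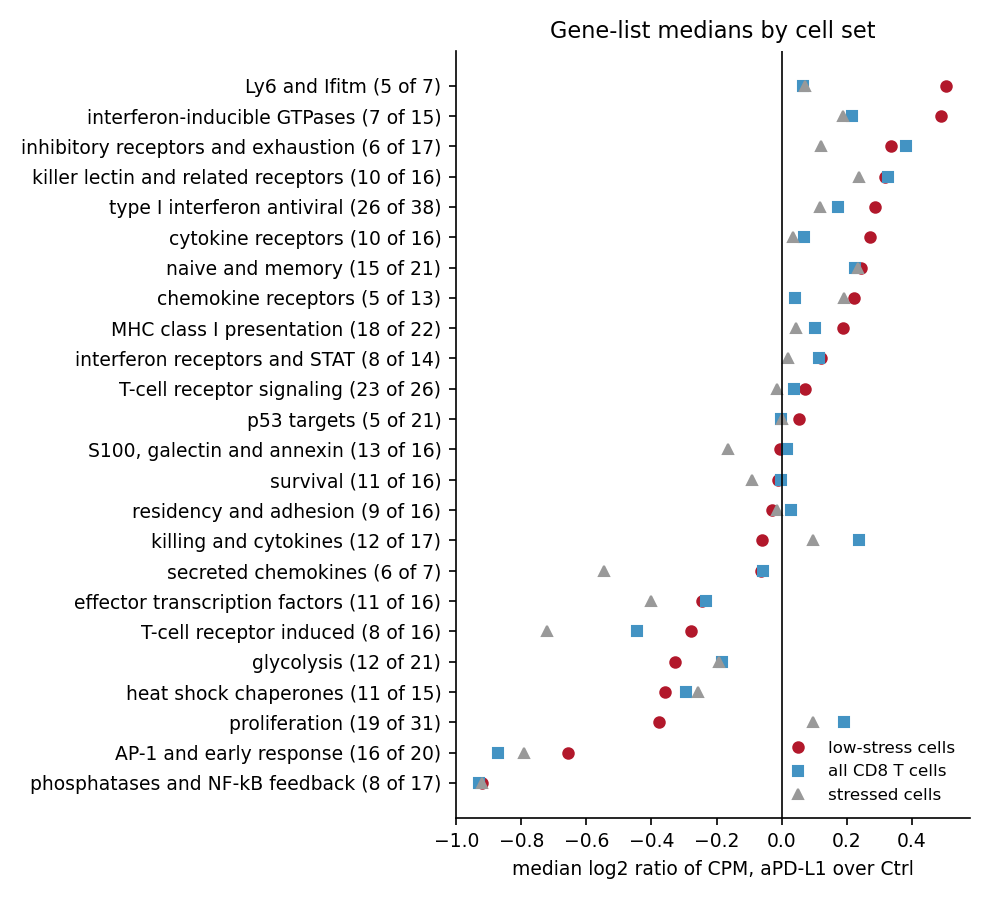
Median log2 ratio of CPM, aPD-L1 over Ctrl, of the measured members of each gene list in low-stress, all and stressed CD8 T cells, with the number measured of the number listed. The phosphatase and NF-kB feedback list stands near -0.92 in each set, and the proliferation list is at -0.38 only in low-stress cells.

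Short sequences from RefSeq start-site windows are shown for early-response and feedback genes called lower and interferon genes called higher. The 2 groups were picked by side. The Dusp1, Tnfaip3 and Slfn5 sequences lie inside the gene spans of GENCODE M21. Start-site windows of 300 bases from RefSeq (GRCm38.p6) were searched on both strands for the core of the interferon-stimulated response element (GAAA, any 2 bases, GAAA), found in 3.44% of all 32851 windows, the cAMP response element TGACGTCA (1.79%) and an NF-kB site (GGG, any 2 bases, TTTCC; 1.63%). Of the 11 interferon genes past the fold and higher, 7 had a window and 4 of these held the first motif. Of the 15 early-response and feedback genes past the fold and lower, 13 had a window, 3 held the NF-kB site and 1 the cAMP response element. Capitals mark a match or its reverse complement, written along the gene's strand, and a match is no evidence of binding. In the Gbp3 sequence another, overlapping match runs on into the lower case. Ifitm3 held the first motif too, and its sequence is not shown.
Tnfaip3 (chr10:19015403-19015432, minus strand): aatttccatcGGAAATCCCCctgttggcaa
Nfkbia (chr12:55492657-55492686, minus strand): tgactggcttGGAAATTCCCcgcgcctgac
Dusp5 (chr19:53529045-53529074, plus strand): cagggggcggGGAAATACCCatatttggcc
Dusp1 (chr17:26508597-26508626, minus strand): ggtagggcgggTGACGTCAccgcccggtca
Gbp3 (chr3:142559989-142560018, plus strand): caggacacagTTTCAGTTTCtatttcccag
Ifi206 (chr1:173491339-173491368, minus strand): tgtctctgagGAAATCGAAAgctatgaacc
Slfn5 (chr11:82951937-82951966, plus strand): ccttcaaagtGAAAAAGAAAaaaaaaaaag

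No cytotoxic gene that passed the filter differed past the fold, but several ratios depended on the gate. Of 17 killing and cytokine genes listed, 12 passed the filter and none was past the fold, with a median log2 ratio of -0.06. Gzmb, the main granzyme of cytotoxic T cells, was at 968 CPM in aPD-L1 and 734 CPM in Ctrl, a ratio of 1.32 [1.19, 1.47], against 1.48 in all CD8 T cells and 0.886 in stressed cells. Its ratio was 1.40 in low-stress cells with no gate UMI, 0.669 [0.525, 0.855] in those with 1, and 0.831 with the gate set per depth. The pore-forming protein gene Prf1 was at 157 CPM in aPD-L1 and 168 CPM in Ctrl, and 1 cell held 38.2% of its Ctrl UMIs. The ratio of Prf1 was 1.89 with the gate at 0 UMIs, 1.81 with the broad gate, 1.64 without dividing cells and 0.691 with the gate per depth. Gzma was 1.42-fold lower [1.11, 1.81] on 9 Ctrl cells, and Tbx21 (T-bet) had a ratio of 0.868 [0.579, 1.33]. Gzmk, the granzyme of early effector and memory cells, was below the filter at 15.9 CPM in aPD-L1 and 51.1 CPM in Ctrl, 3.21-fold lower [1.90, 5.44].

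The ratio of Ifng in low-stress cells rested on 1 cell. The gene of interferon gamma was 1.80-fold lower in aPD-L1 over all CD8 T cells and at a ratio of 0.307 in stressed cells, but at 250 CPM in aPD-L1 and 203 CPM in Ctrl in low-stress cells, a ratio of 1.23 [1.01, 1.51]. In aPD-L1 1 cell held 30.5% of these UMIs, and without the top cell of each library the ratio was 0.982. It was 0.697 without dividing cells and 0.907 with the gate per depth. By gate UMIs the ratio was 2.05 at 0, 0.566 at 1, 0.346 at 2 to 9 and 0.343 at 10 or more. In Ctrl the level was 126 CPM in cells at 0 and 411 CPM in cells at 10 or more, while in aPD-L1 it was 259 CPM and 141 CPM. Tnf, on 11 UMIs in Ctrl, was at 41.8 CPM in aPD-L1 and 18.1 CPM in Ctrl, and 1 aPD-L1 cell held 41.7%.

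Mitotic genes were lower in aPD-L1 after the stress term and not before it. Of 31 listed, 19 passed the filter, 8 were lower and none was higher, where all CD8 T cells gave 0 lower and 1 higher. Over all 3233 tested genes, lower calls were 140 after and 94 before the stress term. Ube2c, a ubiquitin-conjugating enzyme of mitotic exit, was at 68.1 CPM in aPD-L1 and 160 CPM in Ctrl, 2.35-fold lower [1.79, 3.07], but the UMIs sat in 33 aPD-L1 and 14 Ctrl cells. Mki67 was 2.21-fold lower and Top2a 1.91-fold lower, and the DNA replication genes Mcm3, Mcm6, Pcna and Rrm2 had ratios from 1.00 to 1.09. Cells with at least 2 UMIs of 6 mitotic genes were 8.58% [6.48, 11.1] of aPD-L1 and 10.1% [6.07, 15.4] of Ctrl low-stress cells, and 4.24% [2.70, 6.29] and 9.71% [5.76, 15.1] of thinned aPD-L1 and Ctrl cells. Among stressed cells the unthinned shares were 4.58% in aPD-L1 and 5.12% in Ctrl. The stress term removed 415 of 1021 aPD-L1 cells and 508 of 687 Ctrl cells. Without dividing cells Top2a was at 1.62 and Tuba1b at 1.00.

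The widest ratios among named genes rested on low Ctrl counts or on few cells. Ifitm10 was at 100 UMIs in aPD-L1 and 6 in Ctrl (49.7 CPM and 9.89 CPM), 5.03-fold higher [2.23, 14.0], and at a ratio of 2.33 in all CD8 T cells. Tnfsf8 (CD30 ligand) was at 116 UMIs in aPD-L1 and 8 in Ctrl, 4.37-fold higher [2.15, 10.4]. Both were spread over many aPD-L1 cells, 85 for Ifitm10 and 90 for Tnfsf8, and remained past the fold in stressed cells at 1.71-fold and 1.55-fold. Pik3ip1, an inhibitor of PI3K, was 2.76-fold higher [1.52, 5.51]. Spp1 (osteopontin) was at 216 CPM in aPD-L1 and 52.8 CPM in Ctrl, but 1 aPD-L1 cell held 79.5% of its UMIs, and Ccl8, a macrophage chemokine, had 55.6% in 1 cell. Lyz2, a macrophage marker, was higher too, at 139 CPM in aPD-L1 and 90.7 CPM in Ctrl, with 53.8% in 1 cell. Rnf111, Ccdc107, Sde2, Lamb3 and Crebrf were between 1.94-fold and 2.32-fold higher.

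At the low end, the chemokine gene Ccl1 was at 23.4 CPM in aPD-L1 and 226 CPM in Ctrl, but was seen in 5 Ctrl cells, of which 1 held 79.6%. Xcl1, another chemokine gene, was 1.56-fold lower. Cks2 and Nasp, genes of the cell cycle and of histone supply, were 2.80-fold and 2.02-fold lower. Ccl5, Ccl4 and Ccl3 had ratios of 0.974, 1.22 and 1.04 and were not past the fold.

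The other libraries put these gaps in context, although every comparison shares the same Ctrl library, and a trait of that library and a response to treatment cannot be told apart. Under the same gate, Oxali held 611 and Combo 560 low-stress cells. Tnfaip3 was at 50.2 CPM in aPD-L1, 48.2 CPM in Oxali and 58.0 CPM in Combo, against 193 CPM in Ctrl. Dusp1 was at 47.7 CPM in aPD-L1, 46.2 CPM in Oxali and 53.1 CPM in Combo, against 180 CPM in Ctrl. Bcl2 was at 504 CPM in aPD-L1, 439 CPM in Oxali and 426 CPM in Combo, against 236 CPM in Ctrl. For these genes the treated libraries lay close together and Ctrl lay apart. Ctrl was outside the range of the other 3 libraries for 151 of the 160 higher and 129 of the 140 lower genes. aPD-L1 was outside for 79 and 50, and both were outside, at opposite ends, for 74 and 42. How close the treated libraries lay was not measured for these genes, nor the shares over all tested genes. The genes were chosen by their ratio to Ctrl, and Ctrl had the fewest UMIs, so these counts are a description.

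Some genes had another order. Pdcd1 was at 164 CPM in aPD-L1, 103 CPM in Oxali and 268 CPM in Combo, against 97.3 CPM in Ctrl, and Lag3 at 74.1 CPM, 29.2 CPM and 97.3 CPM in aPD-L1, Oxali and Combo, against 36.3 CPM in Ctrl. Oxali and Ctrl thus lay together, and the libraries with the antibody above them. Gzmb was at 968 CPM in aPD-L1, 404 CPM in Oxali and 1550 CPM in Combo, against 734 CPM in Ctrl. Tcf7 was at 152 CPM in aPD-L1, 199 CPM in Oxali and 100 CPM in Combo, against 101 CPM in Ctrl. Rgs1 was at 353 CPM in aPD-L1, 262 CPM in Oxali and 582 CPM in Combo, against 913 CPM in Ctrl.

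**Figure D5:**
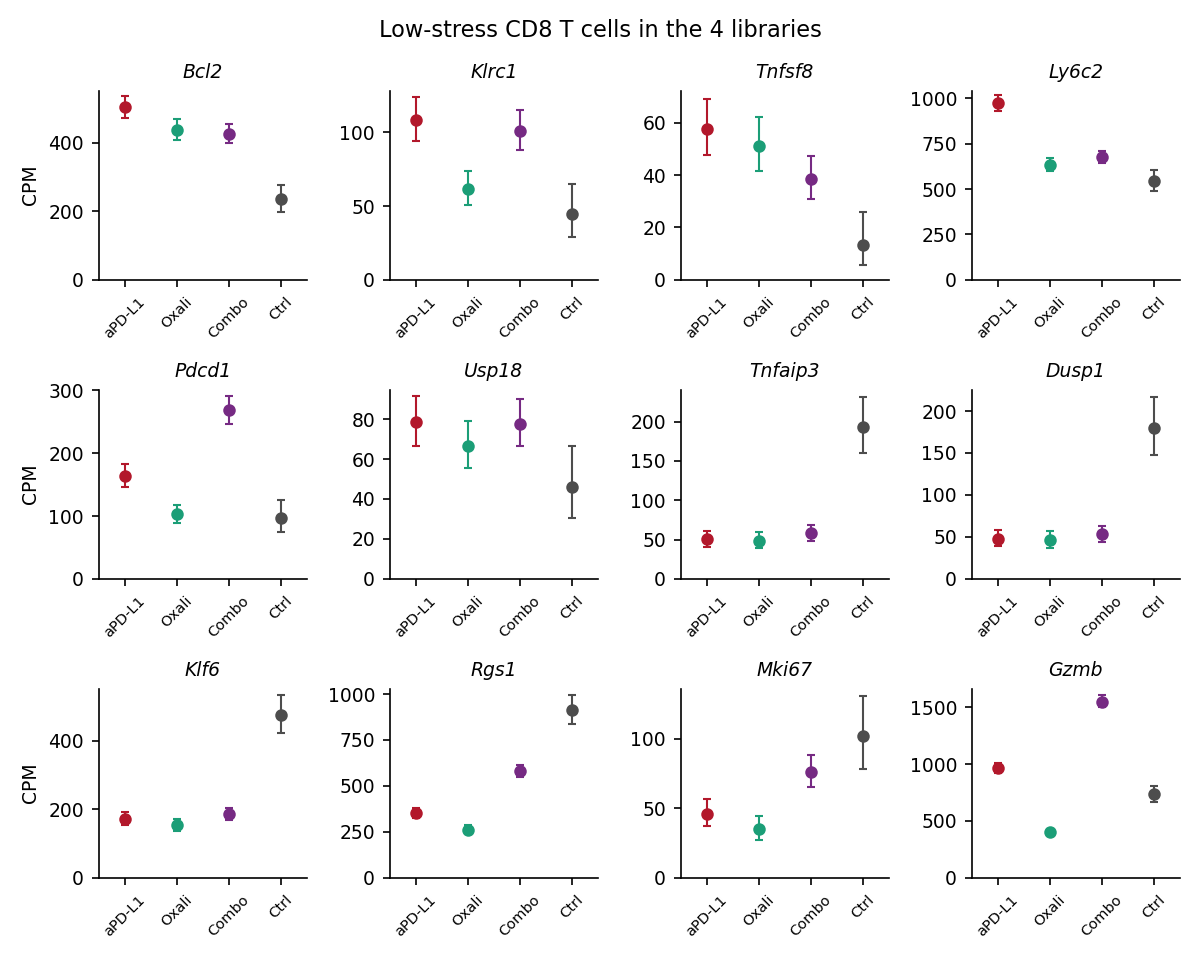
CPM of 12 genes over the summed low-stress CD8 T cells of each library, with 95% exact Poisson intervals for counting error. Ctrl stands apart for Bcl2, Tnfaip3, Dusp1 and Klf6, while Pdcd1 and Gzmb are highest in Combo.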

How the data were processed

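Per the labels, Cell Ranger 3.1.0 and mm10 were used by the authors for alignment and counting, and they deposited whole-number UMI counts for 31053 genes per barcode already called as cells. The annotation release is not given in the sources used here. Counts of the selected cells were summed per library and scaled to CPM. Genes with at least 100 UMIs in both libraries together were set against a fold of 1.5. Counts under 3 were set to 3 for ratios (4.95 CPM in Ctrl, 1.49 in aPD-L1), and 1 UMI was added for list medians. Ratio intervals were exact binomial, conditioned on both counts, CPM intervals exact Poisson and shares Clopper-Pearson, at 95%. UMIs are not independent of the cell they came from, which the intervals do not cover. Doublets were screened with Scrublet only as an alternative. It marked 10 of 1468 aPD-L1 and 11 of 1042 Ctrl cells, of which 1 and 0 were low-stress cells in aPD-L1 and Ctrl.

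The cell rule, the 24 gene lists and 12 marker lists were chosen with earlier results of these data known. Named genes were the 15 highest and 15 lowest ratios with at least 100 UMIs in 1 library (without gate, receptor, ribosomal, mitochondrial, hemoglobin, immunoglobulin, unnamed and other-cell-type genes), list members past the fold, and 21 genes taken whatever their values, 88 in all. Other genes are named as list members, or were singled out after their values were seen, and some list members are not reported here. Positions are from GENCODE M21, which held 481 of 481 genes looked up. Steps were tested on simulated data. Software was scanpy 1.11.5, pandas 2.3.3, numpy 2.4.6, scipy 1.17.1 and matplotlib 3.10.9 under Python 3.11.15.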

Additional observations from a re-analysis of the deposited data

How the results depend on the processing

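In all, 17 alternatives changed the cell gates, the scaling, the gene filter or the floor, and 2 others were added after seeing the data. No paired analysis was possible because each group was 1 library. Higher and lower genes were 399 and 336 with a filter of 50 UMIs, and 25 and 33 with 300. Genes past the fold both before and after the stress term were 165 with the filter of 50 and 25 with that of 300, against 79 as reported. Thinned cells gave 58 higher, 59 lower and 43 in common, and cells without naive markers 105 and 81. Leaving out cells with macrophage markers gave 92 and 71. No stress gate gave 106 and 283 over 5778 genes. The stricter cell filter, with 315 aPD-L1 and 75 Ctrl cells, gave 127 higher and 198 lower. The gate at 0 UMIs gave 93 lower, and a broad gate of 12 stress genes 52 in common. Equal weight per cell gave 225 higher and 146 lower, and leaving out the top cell of each gene 224 and 114.

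Over the 88 named genes and all settings, 71 of 1401 ratios lay on the other side of 1 from the one reported. Of these, 35 were of genes not past the fold or under the filter, Prf1 and Ifng among them. The other 36, with 4 list medians, follow. Without the stress gate Spp1 was at 0.941, Ccl8 at 0.661, Ifi206 at 0.967, Ifitm3 at 0.834, Birc5 at 1.13 and Lgals3 at 0.818, and the proliferation median was 0.11. Under the broad gate Spp1 was at 0.984, Ccl8 at 1.00, Ccl1 at 1.68 and Cish at 1.33, and the medians of heat-shock chaperones and glycolysis were 0.065 and 0.005. Spp1 was at 0.745 with no C1q UMI, and the inhibitory receptor median at -0.043 under the stricter cell filter. Without dividing cells Ccl8 was at 0.742, Top2a at 1.62, Tuba1b at 1.00, Cks1b at 1.34, Pfkl at 1.03 and Lgals3 at 0.926, and on thinned cells Cks1b at 1.01, Pfkl at 1.02 and Lgals3 at 0.913. Xcl1 was at 1.90 without cells with naive markers. Without cells with macrophage markers Cish was at 1.19 and Pfkl at 1.36. In stressed cells Spp1 was at 0.681, Ccl8 at 0.459, Slfn5 at 0.904, Lag3 at 0.842, Sde2 at 0.931, Lamb3 at 0.983, Ube2c at 1.26, Ifi206 at 0.865, Birc5 at 1.15, Cenpf at 1.73, Tuba1b at 1.07, Cks1b at 1.18 and Lgals3 at 0.743. The cause was not tested.

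Over the 14 settings of the low-stress gate and its scaling, Tnfaip3 lay between 0.2 and 0.299, Dusp1 between 0.231 and 0.364, Klf6 between 0.305 and 0.421, Rgs1 between 0.335 and 0.426, Bcl2 between 2.04 and 2.70, Klrc1 between 1.89 and 2.87 and Ly6c2 between 1.72 and 1.96, all past the fold. Tcf7 passed it in 7 of 14, and Pdcd1 in 13. Ratios no longer past the fold and moved by over 1.5 times included those of Bhlhe40 (0.799), Nfkb1 (0.902) and Ikzf2 (0.709) on thinned cells, Nasp under the broad gate (0.831), Slfn5 per depth (1.36) Pik3ip1 without naive markers (1.44), and Ube2c (0.680) and Cenpf (0.829) without macrophage markers. The 179 low-stress Ctrl cells limit most ratios.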

Other observations

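Glycolytic genes were all on the lower side in aPD-L1 low-stress cells. All 12 measured of 21 listed had ratios below 1, and the median log2 ratio was -0.33, beside -0.01 over all tested genes. Under the broad stress gate the list median was 0.005. Only Pfkl, a phosphofructokinase subunit, passed the fold, at 47.2 CPM in aPD-L1 and 72.5 CPM in Ctrl. It did so in 6 of 14 alternatives, and its ratio was 1.03 without dividing cells and 1.02 on thinned cells. Cytokine receptor genes had 1 of 10 measured members past the fold, Il7r, and chemokine receptor genes 0 of 5. Trp53inp1, a p53 target, was at 45.2 CPM in aPD-L1 and 24.7 CPM in Ctrl, and was the only member of 5 measured p53 targets past the fold. Cish, a feedback inhibitor of cytokine signals, was at 43.7 CPM in aPD-L1 and 70.9 CPM in Ctrl. Lgals3, the galectin-3 gene, was at 396 CPM in aPD-L1 and 259 CPM in Ctrl, and macrophages express it too.

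Il17a was at 150 UMIs in aPD-L1, in 2 cells of which 1 held 92.7%, and at 2 UMIs in Ctrl. Hist1h1b, a linker histone gene, was 1.89-fold higher over all CD8 T cells and at 124 CPM in aPD-L1 and 120 CPM in Ctrl in low-stress cells.

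Survival genes had 1 of 11 measured members past the fold, Bcl2, and a median log2 ratio of -0.01, and S100, galectin and annexin genes 1 of 13, Lgals3, and a median of -0.004. Interferon receptor and STAT genes had 1 of 8, Cish, and a median of 0.12. Summed marker levels were 544 CPM in aPD-L1 and 539 CPM in Ctrl for dendritic cells, 338 CPM and 379 CPM for CD4 and regulatory T cells, 122 CPM and 119 CPM for B cells, 154 CPM and 49.5 CPM for gamma-delta and type 17 T cells, 75.5 CPM and 72.5 CPM for epithelial tumor cells, 21.9 CPM and 24.7 CPM for fibroblasts and endothelium, and 0.497 CPM and 3.30 CPM for mast cells, in aPD-L1 and Ctrl in each case.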
